A study of Mus musculus with 4 samples.

Results

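The transcripts described here come from 5 maternal-effect genes, genes whose product an embryo inherits from the egg and needs for its early development. They are Nlrp5, Padi6, Tle6, Zar1 and Npm2, and they were chosen by name among the non-control spots of the array, where Nlrp5 carries its older name Nalp5. Each was measured by 1 probe spotted once, and 4 of the 5 passed the filter on dim probes, as 19.7% of all probes did. They entered the test, which covered 6931 genes. Mouse oocytes had been kept for 60 min at 37 °C under a hydrostatic pressure of 20 MPa, and the controls were oocytes held in the same way without the pressure. Each of 4 arrays compared 1 treated pool of 50 oocytes, labelled with the red dye Cy5, with 1 control pool of 50 oocytes, labelled with the green dye Cy3. The labels call the 4 replicates biological, and the strain, the age of the females and the meiotic stage of the oocytes are not given in the sources used here. The treated pool was red on every array, so dye and treatment cannot be told apart. In a pool, fewer intact oocytes and less RNA per oocyte cannot be told apart either.

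An oocyte that has finished growing makes almost no new RNA, and it matures, is fertilised and divides on transcripts and proteins stored during growth. NLRP5 (also called MATER), TLE6 and PADI6 belong to the subcortical maternal complex and the cytoplasmic lattices, assemblies beneath the oocyte membrane and in its cytoplasm that store proteins for the embryo. Embryos from mothers without Nlrp5, Tle6 or Padi6 stop dividing in early cleavage. ZAR1 binds stored maternal mRNAs in the cytoplasm, and embryos from mothers without it arrest at the oocyte-to-embryo transition. NPM2, nucleoplasmin, is a histone chaperone of the oocyte nucleus that organises nucleoli and chromatin there and after fertilisation.

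The probe of each gene is printed because each value below rests on that single oligonucleotide of 60 nt. Sequences and positions are those of the deposited files, 5′ to 3′ and in mouse build mm7. Capitals mark the longest run that the probe shares with a probe for another gene on the array. Of Tle6 and Npm2 the first 30 bases are printed, and whether any of the probes lies in coding sequence or a UTR was not settled here.

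Nlrp5: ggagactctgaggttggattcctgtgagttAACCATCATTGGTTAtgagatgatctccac
Padi6: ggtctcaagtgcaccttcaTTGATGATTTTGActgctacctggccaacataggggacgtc
Tle6: ccTAACTGCACAGTGGTggatggcaatggg
Zar1: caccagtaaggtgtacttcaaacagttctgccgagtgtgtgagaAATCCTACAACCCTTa
Npm2: tgacctcATTTTAGCATCTTctgcgtccaa

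The longest shared run was 15 bases for Nlrp5, Tle6 and Zar1 and 13 bases for Padi6 and Npm2, so no probe shared a long stretch with that of another gene. The Padi6 probe maps to chr4:140106080-140106139, the Tle6 probe to chr10:81386150-81386209 and the Npm2 probe to chr14:65291932-65291991, all on the minus strand. The Nlrp5 probe spans 2524 bases at chr7:20212190-20214713 on the plus strand and the Zar1 probe spans 139 bases at chr5:71952702-71952840 on the minus strand in these files, longer than the oligonucleotide itself. G and C made up 45% of the Nlrp5 and Zar1 probes, 50% of the Padi6 probe, 53.3% of the Npm2 probe and 55% of the Tle6 probe, against a median of 40% over all 41174 probes.

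The arrays were not alike. Of 43379 spots, those well above background numbered 7049 to 11155 in the treated pools and 8309 to 10837 in the control pools. The 99th percentile of net intensity in the treated channel was 2.56 times that in the control channel on replicate 1 and between 0.247 and 0.393 times on replicates 2 to 4. Over all probes the log2 ratios of replicate 1 correlated with the others at -0.17, -0.15 and -0.19, and those of replicates 2 to 4 with each other at 0.09 to 0.29. Repeat spots of a probe within an array differed little, with a median SD of the log2 ratio of 0.04 to 0.09 over 75 probes. Of 11 oocyte markers on the array 8 passed the filter on dim probes, among them Zp3, Gdf9, Bmp15, Nobox and Dazl. Zp2, Figla and Mos did not pass. Of 15 cumulus and granulosa markers 5 passed, namely Inha, Nr5a2, Hsd17b1, Cyp19a1 and Tnfaip6. Another 6, including Amh, Foxl2, Fshr and Star, were well above background nowhere. The summed net intensity of all 15 was 836 to 5488 in the control pools and 630 to 2255 in the treated pools. For the oocyte markers it was 78906 to 289069 and 43090 to 305039. Of 7 blood and immune markers 2 passed, with sums of 2084 to 8092 and 611 to 5741, and of 8 oviduct, endothelium and stroma markers 2 passed, with sums of 536 to 2055 and 251 to 1337. The part of other cells in the values below was not tested.

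None of the 4 tested transcripts passed the test for a difference between treated and control oocytes, and Nlrp5 could not be tested. Tle6 and Zar1 were clearly detected in both pools on all 4 arrays, and their mean log2 ratios of treated over control were -0.07 and -0.09. Padi6 and Npm2 were near the background of the array, and Nlrp5 was not well above it in any of the 8 pools. Over all 6931 genes, limma called 0 higher and 0 lower at an adjusted p under 0.05, which is 0% in each direction. At an unadjusted p under 0.05, 51 genes were higher (0.736%) and 237 lower (3.42%), and none of the 4 tested genes was among them in this fit. None had a mean log2 ratio of 1 or more in size, as 144 genes (2.08%) did. The lowest adjusted p of any gene in that limma fit was 0.928.

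Tle6, a member of the Groucho family of co-repressors by sequence and a core subunit of the subcortical maternal complex, gave the following spot intensities. In the control pools of replicates 1 to 4 the mean intensity was 807, 402, 2052 and 2549 scanner units, over a local background of 24.0 to 29.5. In the treated pools it was 1755, 223, 530.2 and 662, over a background of 33 to 38. The treated pool was the brighter on replicate 1 and the dimmer on replicates 2 to 4, and the ranges of the pools overlapped. As net log2 ratios these differences were 1.13, -0.97, -2.03 and -2.01, and they followed the brightness of the channels as wholes, which also favoured red on replicate 1 and green on the other arrays. After loess normalization, which removes the dependence of the ratio on brightness within an array, the log2 ratios were -0.10, 0.30, -0.07 and -0.42. The treated pool was thus lower on 3 arrays and higher on replicate 2. The mean was -0.07 ± 0.19 (SE, n = 4), with a 95% confidence interval of -0.54 to 0.40 and an adjusted p of 0.966 by limma. Every SE and interval given here is limma's moderated one, which draws the variance of a gene toward that of all genes. It can therefore be wider or narrower than the spread of the 4 arrays alone would give. The sign of this mean was not stable, as it was 0.14 with the ratios scaled between arrays and 0.04 without replicate 4. With median centring in place of loess it was -0.72, and the median of all genes then lay at -0.34.

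Nlrp5, which encodes the NLR-family protein that scaffolds the complex, was close to the background. Its control spots read 42.3, 52.4, 46.5 and 43.9 over a background of 27.0 to 29.0, and its treated spots 39.8, 47.4, 42.2 and 43.1 over 34.0 to 39.0. The highest was 1.81 times its local background, in the control pool of replicate 2. On replicates 2 and 3 the spot differed from background by the scanner's own test, with p-values of 2.5e-08 and 1.3e-18 in the control channel and 8.9e-06 and 4.8e-13 in the treated channel, while on replicates 1 and 4 the p-values were 0.30 to 0.52. That test compares the pixels of 1 spot with their surroundings and says nothing about replicates. As no pool was well above background, its spots give no measured fold and the gene was not tested. This was the more common outcome on the array, where 26806 of 41174 probes (65.1%) were well above background nowhere.

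Padi6, a peptidylarginine deiminase family member needed for the cytoplasmic lattices, was dim as well. Its control spots read 44.3, 65.2, 44.8 and 53.2 over a background of 22.0 to 26.0 and were well above background on replicates 2, 3 and 4. Its treated spots read 48.6, 43.3, 34.6 and 40.5 over a background of 31.5 to 35.0 and were well above background on replicate 1 only. On replicates 2 to 4 the treated channel therefore has a bound and not a level, and the control pool was the one detected. The log2 ratios were 0.01, -0.06, -0.22 and -0.18, with a mean of -0.11 ± 0.16 (SE, n = 4), an interval of -0.51 to 0.28 and an adjusted p of 0.942 by limma. Padi6 passed the filter through its control channel, so the side on which it was measured follows in part from the filter. On replicate 1 the control spot was in turn not well above background, so no array had a level in both channels. The interval and p therefore do not bear on whether Padi6 differed.

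**Figure D1:**
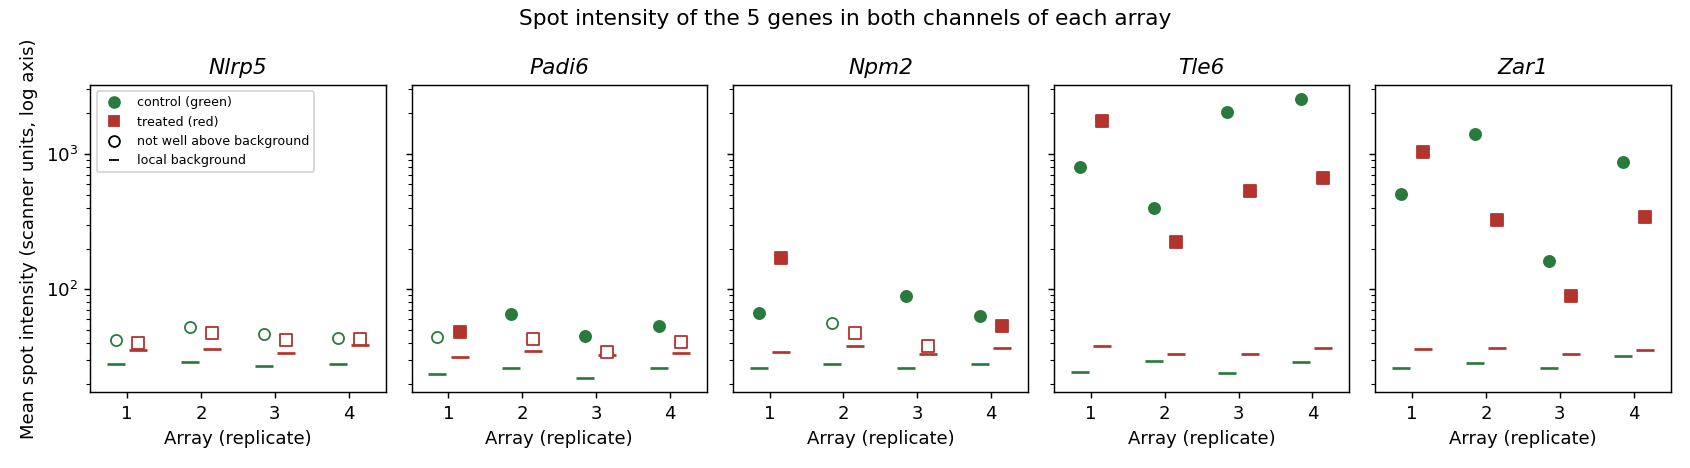
Mean spot intensity (scanner units, log axis) of the 5 genes on each of the 4 arrays, with control pools as green circles, treated pools as red squares, open symbols for spots not well above background and dashes for the local background. Tle6 and Zar1 stood well clear of the background in both channels of all 4 arrays, Padi6 and Npm2 were near it, and all 8 symbols of Nlrp5 are open.

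Zar1, the mRNA-binding factor, was detected in all 8 pools. Its control spots read 502, 1402, 162 and 870.2 over a background of 26.0 to 32.0, and its treated spots 1027, 323, 88.6 and 342 over 33.0 to 37.0. The treated pool was again the brighter on replicate 1 and the dimmer on the other arrays before normalization, and the ranges overlapped. After normalization the log2 ratios were -0.12, -0.78, 0.47 and 0.07. Replicates 2 and 3 lay on opposite sides of 0, and the split was 2 arrays below and 2 above. The mean was -0.09 ± 0.25 (SE, n = 4), with an interval of -0.71 to 0.53 and an adjusted p of 0.968 by limma. The mean turned to 0.14 without replicate 2 and to 0.12 with the ratios of the scanner software. It was -0.59 with median centring in place of loess and -0.55 with the ratios scaled between arrays.

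Npm2, the nuclear histone chaperone, gave control spots of 66.3, 56.2, 88.6 and 64.0 over a background of 26.0 to 28.0, well above background on replicates 1, 3 and 4. The treated spots read 169.6, 47.1, 37.9 and 53.1 over 33 to 38 and were well above background on replicates 1 and 4. The treated pool of replicate 1 stood above all other pools, and the treated pool of replicate 3 was the lowest. The log2 ratios were 0.47, -0.02, -0.28 and 0.04, and the mean was 0.05 ± 0.19 (SE, n = 4), with an interval of -0.43 to 0.53 and an adjusted p of 0.979 by limma. Without replicate 1 the mean turned to -0.09. Npm2 also passed the filter only through its control channel, and its treated channel has no level on replicates 2 and 3, so its interval and p do not bear on whether it differed.

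The means were also tested without a model over genes. In this exact sign-flip permutation test, two-sided, 4 arrays cannot reach 0.05, and the smallest p they allow is 0.12. The p was 0.25 for Padi6, 0.625 for Tle6 and 0.75 for both Zar1 and Npm2. For Padi6 and Npm2 this p and the signs below rest in part on spots without a level. They therefore do not bear on whether those genes differed. Of the 4 tested genes, 0 were below 0 on all 4 arrays and 0 above, against 646 (9.39%) and 202 (2.94%) of the 6879 genes with a value on every array. These shares take replicate 1 in the direction its labels give, although it correlated negatively with the others and its channels were balanced the other way. With replicate 1 opposite to the other 3 arrays, 1066 genes (15.5%) were above 0 on replicates 2 to 4 and 859 (12.5%) below. Padi6 was among the latter with 0.01 on replicate 1, where its control spot was not well above background.

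Each array can also be read alone through the scanner software, which gives every spot its own log ratio and a p-value from the spot's error. These p-values compare 2 pools on 1 array and not the conditions. For Tle6 the software's log2 ratios were -0.23, 0.39, 0.21 and -0.32, with p-values of 0.26, 0.063, 0.31 and 0.12. No array set its Tle6 pools apart at p under 0.01, and the arrays were again on both sides of 0.

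For Zar1 the software's log2 ratios were -0.21, -0.67, 1.01 and 0.34. The p-values were 0.30, 0.0016, 1.2e-05 and 0.095, so replicate 2 was called lower in the treated pool and replicate 3 higher. Npm2 had a similar contradiction, with log2 ratios of 0.97, -0.18, -4.0 and -0.01 and p-values of 3.2e-05, 0.78, 2.1e-14 and 0.98. It was called higher in the treated pool on replicate 1 and lower on replicate 3, where that pool was not well above background. Such calls were frequent: of the 8799 spots of kept probes, 30.5%, 27.1%, 28.2% and 30.7% were called higher on replicates 1 to 4 at p under 0.01, and 29.7%, 37.3%, 35.0% and 35.6% lower.

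Padi6 depended most on how background was handled. The software's log2 ratios were 0.29, -2.23, -2.13 and -2.09, with p-values of 0.53, 1.7e-04, 0.012 and 0.013, and their mean was -1.54. With normexp, which models the background and here adds an offset of 50 units to each channel, the mean was -0.11. Both place the treated pool lower on replicates 2 to 4 and near or above the control on replicate 1, where the control spot had no level. The size of the difference moved with the background step, and the treated spots of replicates 2 to 4 were 1.06 to 1.24 times their background. With the software's ratios limma gave Padi6 an unadjusted p of 0.043 and an adjusted p of 0.650, the lowest adjusted p among its alternatives. In that fit 512 of 6931 genes had an unadjusted p under 0.05. As no array had a level of Padi6 in both channels, this p does not bear on whether Padi6 differed either. For Npm2 the mean was 0.05 with normexp and -0.80 with the software's ratios, a change of sign.

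**Figure D2:**
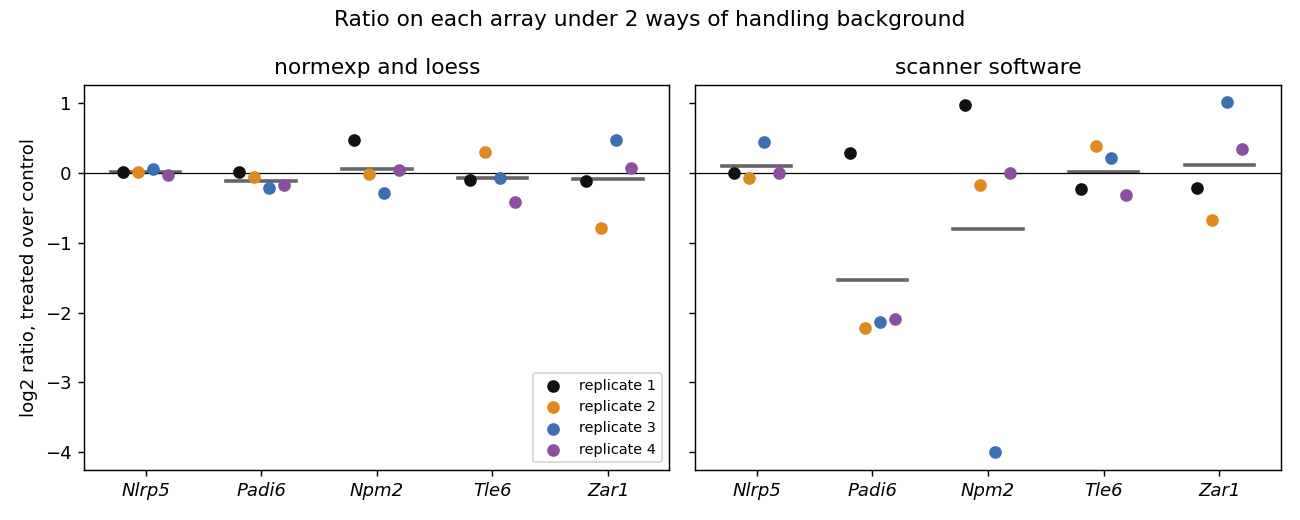
Log2 ratio of treated over control on each array, with 1 colour per replicate and a grey bar at the mean over 4 arrays, after normexp and loess (left) and as given by the scanner software (right). The ratios of Padi6 and Npm2 reached -2.23 and -4.0 with the software and stayed between -0.28 and 0.47 with normexp, while those of Tle6 and Zar1 lay between -0.78 and 0.47 with normexp and between -0.67 and 1.01 with the software.

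After normalization, the bright transcripts varied more between arrays than between the pools of an array. This follows in part from the loess step, which centres the ratios of each array on 0. Before it the net log2 ratios of Tle6 were 1.13, -0.97, -2.03 and -2.01. On a log2 scale after normalization within and between arrays, the Tle6 level in the control pools was 9.83, 8.59, 10.57 and 10.22 for replicates 1 to 4. In the treated pools it was 9.74, 8.89, 10.50 and 9.80. Replicate 2 was lowest and replicate 3 highest in both kinds of pool.

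The Zar1 level was 9.16, 10.26, 7.22 and 8.84 in the control pools and 9.05, 9.48, 7.69 and 8.91 in the treated pools. Its order was another one, with replicate 3 lowest and replicate 2 highest in both. As an SD over the 4 control pools, Tle6 varied by 0.86 and Zar1 by 1.26, which is more than in 79.8% and 95.1% of the genes, where the median SD was 0.52. Over the treated pools the SDs were 0.66 and 0.77, more than in 67.6% and 76.6% of the genes. The SD of their log2 ratio was 0.30 for Tle6 and 0.52 for Zar1, more than in 23.7% and 50.2% of the genes. The genes compared include dim ones, whose spread the offset of 50 units narrows. Padi6, for example, had an SD of 0.03 over its control pools. The shares are thus not those among genes of like brightness. The net intensity of Zar1 differed 10.1-fold between its dimmest and brightest control pool and 17.8-fold among the treated pools, before any normalization between arrays.

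In these normalized levels the order of the 4 arrays was identical in both channels for Tle6, Zar1 and Npm2, 3 of the 4 tested genes. It was identical for 723 of 6879 genes (10.5%). Both levels of a spot are built from its mean log intensity over the channels, so they are not independent. In the spot intensities before normalization, the order differed between the channels for each of Tle6, Zar1 and Npm2. Those 3 genes were singled out after their values were seen. For Npm2 the order includes pools that were not well above background. Both channels are read from the same spot, and the part of the shared spot, the array or the shared collection of oocytes in this order was not tested.

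**Figure D3:**
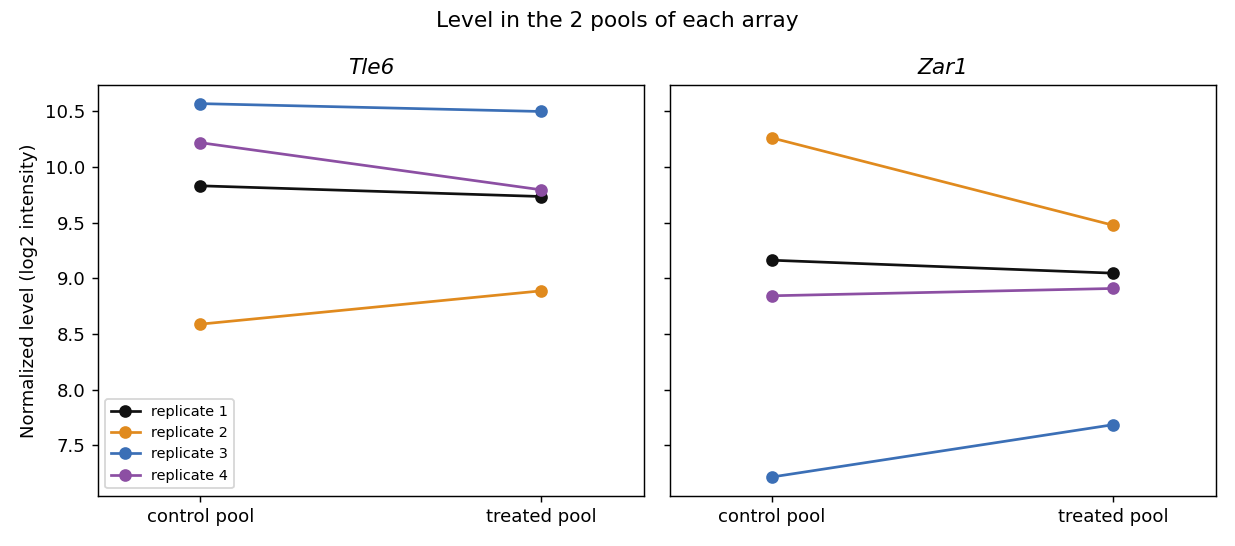
Normalized level (log2 intensity) of Tle6 and Zar1 in the control and treated pool of each array, with a line joining the pools of 1 array and 1 colour per replicate. The arrays keep their order from the control to the treated pool in both genes, and the lines span 8.59 to 10.57 for Tle6 and 7.22 to 10.26 for Zar1.

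The ratios of the tested genes were also compared with each other on the same arrays, in a design too small for any pair to pass. Over the 6 pairs of Padi6, Tle6, Zar1 and Npm2, the exact sign-flip p of the difference in log2 ratio on the same array was 0.375 to 1, and 1 after adjustment over the 6 pairs. Tle6 minus Zar1 was 0.02 on average, but the arrays ranged from -0.54 on replicate 3 to 1.08 on replicate 2. The SD of that difference was 0.75, and the p-values say nothing on whether the genes respond alike.

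All 5 listed partners of the complex passed the filter on dim probes and were tested. Ooep and Khdc3 (also called FILIA) are small KH-domain subunits of the complex. The log2 ratios of Ooep were -0.68, -0.46, -0.96 and 0.86, with a mean of -0.31 ± 0.34 (SE, n = 4), lower in the treated pool on 3 arrays. Those of Khdc3 were 0.55, 0.58, -1.23 and -0.01, with a mean of -0.03 ± 0.35 and replicate 3 alone far below 0.

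Nlrp2 and Nlrp4f are NLR-family proteins linked to the complex, and Zbed3 is a further component. Nlrp4f was above 0 on all 4 arrays, with 0.17, 0.15, 0.03 and 0.89 and a mean of 0.31 ± 0.21 (SE, n = 4), which was -0.42 with median centring. Nlrp2 had ratios of 0.77, -0.27, -0.24 and 0.37 and a mean of 0.16 ± 0.24. Zbed3 had 1.11, -0.08, -0.05 and -0.45 and a mean of 0.13 ± 0.29, and the one high array was replicate 1. Of the 5 partners 3 had a mean above 0 and 2 below, their median was 0.13 against -0.02 over all genes tested, and limma called 0 of 5 (lowest adjusted p 0.928). The median depended on replicate 1, without which it was -0.18, and it was -0.45 with that centring, under which the median of all genes was -0.34.

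Paralogs are given to describe the families of the 5 genes, and whether they behaved in another way was not tested. Of 22 listed 18 were on the array by name and 13 were tested, of which 5 had a mean above 0 and 8 below, with a median of -0.14 and 0 called by limma. The median was 0.12, with 5 above and 4 below, over the 9 paralogs well above background in both channels on all arrays. Among the NLR paralogs Nlrp4a was at 0.19, Nlrp4b at 0.25, Nlrp4c at -0.16, Nlrp9a at 0.27, Nlrp9c at 0.12 and Nlrp14 at -0.16. Nlrp9a and Nlrp9c are close copies, and their probes ran in parallel: Nlrp9a was at 1.17, -1.36, -0.03 and 1.31 on replicates 1 to 4 and Nlrp9c at 0.69, -1.11, -0.04 and 0.95. This order of the arrays was not particular to close copies. Nlrp4a had it too, with 0.37, -0.41, 0.06 and 0.73, as did the oocyte marker Oog1, with 0.43, -0.70, 0.01 and 0.98. Whether the probes of Nlrp9a and Nlrp9c each detect only their own transcript was not tested.

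The deiminases Padi1 and Padi4 had means of 0.19 and -0.14, while Padi2 and Padi3 were well above background nowhere. Padi4 passed the filter only through its control channel, with 1 treated pool well above background. Of the Groucho relatives of Tle6, Tle1 was at -0.20, Tle3 at -0.08 and Tle4 at -0.39. Tle4 was at -1.93 on replicate 4 and 0.79 on replicate 3. It too passed only through its control channel, with 2 treated pools well above background. The means of Padi4 and Tle4 therefore do not bear on whether they differed. Npm1 and Npm3, the nucleophosmin and nucleoplasmin relatives of Npm2, were at -0.35 ± 0.18 and -0.17 ± 0.25 (SE, n = 4). Npm1, a nucleolar protein of all cells, was below 0 on 3 arrays and at 0.01 on replicate 2, and its other kept probe had a mean of -0.48. No paralog was called at an adjusted p under 0.05.

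**Figure D4:**
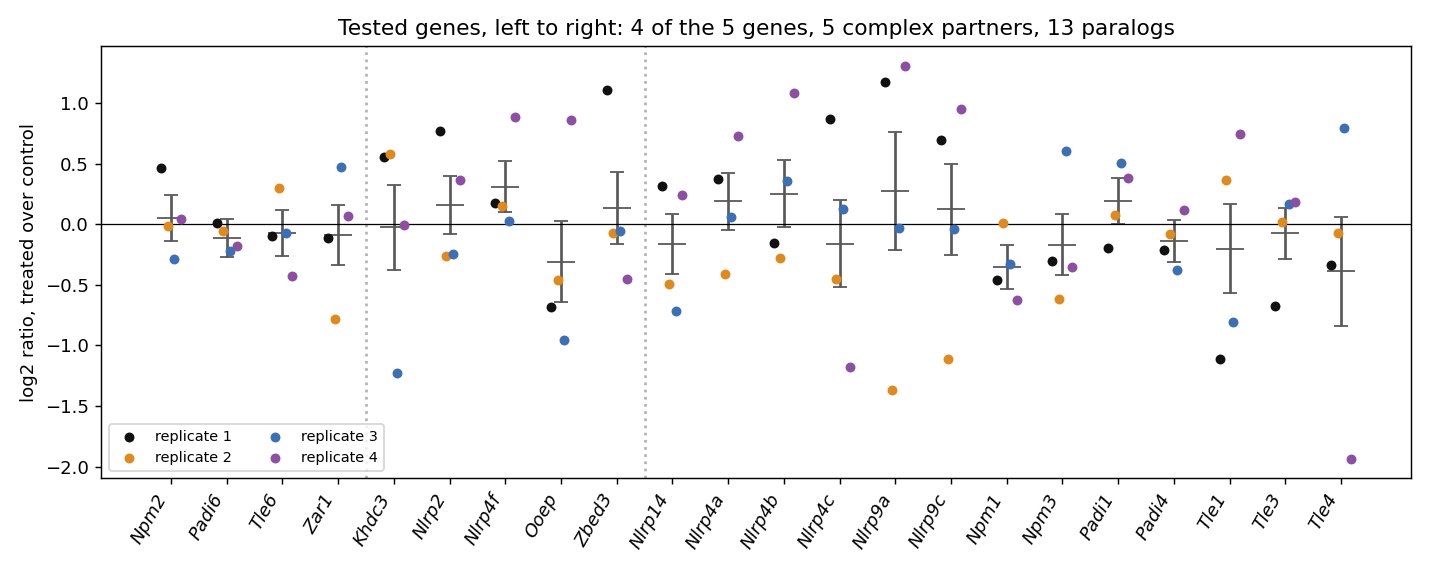
Log2 ratio of treated over control for the 22 tested genes. The 4 tested maternal-effect genes are at the left, the 5 complex partners in the middle and the 13 paralogs at the right. Points are arrays, coloured by replicate, and grey bars are the mean and its moderated SE from limma. The points lie on both sides of 0 in all of these genes except Nlrp4f, where they run from 0.03 to 0.89.

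Other genes with a maternal effect in the mouse were listed from textbook knowledge, 30 in all, and 25 were tested. Of these 16 had a mean above 0 and 9 below, with a median of 0.12, and limma called 0. Ctnnb1, Dicer1 and Rlim were above 0 on all 4 arrays and no gene of the list was below 0 on all. That is 3 of 25 above, beside 2.94% of all genes. The direction of the list depended on replicate 1, without which 11 were above and 14 below with a median of -0.07. It also depended on the normalization, with 4 above and 21 below after median centring. The median of the list was then -0.35, beside -0.34 over all genes.

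Rlim, a ubiquitin ligase required from the mother for imprinted X inactivation, had log2 ratios of 0.13, 1.09, 0.50 and 0.43. Its mean was 0.54 ± 0.21 (SE, n = 4), with an unadjusted p of 0.049 and an adjusted p of 0.928 by limma, but its other kept probe had a mean of -0.18. Ctnnb1, the adhesion and signalling protein β-catenin, had 1.20, 0.38, 0.28 and 0.31 and a mean of 0.54 ± 0.22. After median centring the means of Rlim and Ctnnb1 were -0.24 and -0.17, above the median of all genes at -0.34. Dicer1, the enzyme that processes small RNAs, had 0.34, 0.10, 0.46 and 1.57 and a mean of 0.62 ± 0.29.

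On the other side of 0 were Btg4, an adaptor for the removal of poly(A) tails from maternal mRNA, at -0.36 ± 0.29, and Smarca4, the BRG1 chromatin remodeller, at -0.32 ± 0.27. Dnmt1, the maintenance DNA methyltransferase, was at -0.28 ± 0.24 (SE, n = 4 for each). Dnmt1 passed the filter only through its control channel, with 3 control pools and 1 treated pool well above background. Smarca4 passed only through its treated channel, with 2 control and 3 treated pools. The means of Dnmt1 and Smarca4 therefore do not bear on whether they differed. None of Btg4, Smarca4 and Dnmt1 passed the test, and their means rested on replicate 4. Without it they were -0.03 for Smarca4, -0.03 for Dnmt1 and -0.05 for Btg4.

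The genes with the most similar ratios over the 4 arrays were picked out of 6039 tested genes with a symbol, by the root mean square difference of the log2 ratios. For Padi6 they were Lsm4 at 0.020 and Rab7 at 0.042, and for Tle6 Rtf1 at 0.069 and Lrpprc at 0.070. For Zar1 they were Cox7a2 at 0.053 and Sptlc1 at 0.12, and for Npm2 Vps28 at 0.044 and Dcaf13 at 0.081. None of these neighbours was one of the 5 genes, a partner or a paralog. Several were dim: Padi6 and Lsm4 were well above background in 1 treated pool each, and Npm2, Lrpprc and Dcaf13 in 2. With the software's ratios the means of Padi6 and Lsm4 were -1.54 and -1.89, beside -0.11 and -0.12 with normexp. Whether a small distance between dim genes marks a shared pattern was not tested.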

How the data were processed

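RNA of each pool was amplified from 240 pg in 2 rounds, per the labels' protocols. The submitters' processing notes name Agilent Feature Extraction 9.5.1.1. Its deposited files hold the mean intensity and local background intensity of each spot, per the file headers. They further hold processed signals with a log10 ratio, the p-value of that ratio and background flags, per the file headers. The authors' value table differs from that log10 ratio by at most 5.0e-10.

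The deposited intensity values were background-corrected with normexp (offset 50) and loess-normalized within arrays, giving control spots no weight (limma 3.58.1, R 4.3.3). Probes entered the test if flagged as well above the background in 1 channel on 3 or 4 of the arrays, as 8124 of 41174 were (19.7%). The brightest such probe stood for a gene, and no spot was saturated. lmFit and eBayes tested each mean log2 ratio, two-sided, with Benjamini-Hochberg adjustment over 6931 genes. Levels were set across arrays with Aquantile. Gene names were updated by accession, symbol or synonym with RefSeq names of GRCm38.p6, used for nothing else, and 152 genes kept the name in the file while 541 had none. Genes named beyond the 5 are the partners, the tested paralogs, the 3 other maternal-effect genes per sign with the smallest p, and 2 nearest patterns per tested gene. The genes and lists were chosen with earlier results of these data known. Protein and promoter sequences were not used here.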

Additional observations from a re-analysis of the deposited data

Results flagged for a closer look

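Of 54 sets of 4 log2 ratios examined for a single array far from the rest, 2 stood out by Dixon's criterion at 95%, and chance gives about 5% of such sets. Ctnnb1 was at 1.20 on replicate 1 and between 0.28 and 0.38 on the other arrays, and without replicate 1 its mean was 0.33. Smarca4 was at -1.21 on replicate 4 and between -0.13 and 0.08 on the others, and without replicate 4 its mean was -0.03. None of the 5 maternal-effect genes met the criterion.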

How the results depend on the processing

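Across 16 alternatives limma called 0 genes in each. The number at an unadjusted p under 0.05 was 288 as reported and ran from 72 with a trended, robust variance to 933 with the sign of replicate 1 turned, where the lowest adjusted p was 0.054. That turn goes against the labels, which give the treated pool in red on replicate 1 too. Of 73 alternative values of the 5 genes 13 reversed, all of Tle6, Zar1 or Npm2, and 2 moved, both of Nlrp5, which was also -0.0029 without replicate 3, and of 535 for the 34 other named genes 69 reversed. No cause was tested. With the scanner's processed signals, which equal the authors' value table, Tle6 was 0.011, Zar1 0.12, Npm2 -0.80, Khdc3 0.091, Nlrp4b -0.079, Npm3 0.012, the median of the tested members -0.40 (reported as -0.08) and the value for Nlrp5, which is no measured fold as neither channel was well above background, 0.095. With no background subtraction Lrpprc was 0.034. Median centring, which put the median of all genes at -0.34 in place of -0.02, gave a median of the tested members of -0.34, and Tle6 -0.72, Zar1 -0.59, Nlrp2 -0.45, Nlrp4f -0.42, Zbed3 -0.22, Nlrp4a -0.54, Nlrp4b -0.52, Nlrp9a -0.37, Nlrp9c -0.44, Padi1 -0.021, Rlim -0.24, Ctnnb1 -0.17 and Vps28 -0.083. Scaling between arrays gave Tle6 0.14, Zar1 -0.55, Khdc3 0.33, Nlrp2 -0.066, Nlrp4a -0.14, Nlrp4b -0.0075, Nlrp9a -0.68, Nlrp9c -0.62, Tle1 0.075, Rtf1 0.066 and Lrpprc 0.20. Array weights gave Tle6 0.11, Npm2 -0.033, Khdc3 0.11, Nlrp2 -0.12, Zbed3 -0.016, Nlrp4a -0.13, Nlrp9a -0.61, Nlrp9c -0.53, Tle1 0.024, Tle3 0.013, Rtf1 0.056, Lrpprc 0.16 and Vps28 -0.0045. With the sign of replicate 1 turned Npm2 was -0.18, Ooep 0.032, Nlrp2 -0.23, Zbed3 -0.42, Nlrp9a -0.32, Nlrp9c -0.22, Tle1 0.35, Tle3 0.26, Ctnnb1 -0.057, Cox7a2 0.0018, Sptlc1 0.0028, Vps28 -0.17 and Dcaf13 -0.11.

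Leaving out each array in turn gave ranges of -0.20 to 0.044 for Tle6, -0.28 to 0.14 for Zar1, -0.087 to 0.16 for Npm2, -0.085 to -0.023 for the median of the tested members, -0.23 to 0.37 for Khdc3, -0.048 to 0.30 for Nlrp2, -0.19 to 0.33 for Zbed3, -0.076 to 0.82 for Nlrp9a, -0.15 to 0.53 for Nlrp9c, -0.32 to 0.021 for Nlrp14, -0.025 to 0.43 for Nlrp4b, -0.50 to 0.18 for Nlrp4c, -0.52 to 0.10 for Tle1, -0.16 to 0.12 for Tle3, -0.78 to 0.13 for Tle4, -0.19 to 0.037 for Rtf1, -0.13 to 0.12 for Lrpprc, -0.31 to 0.13 for Cox7a2, -0.17 to 0.21 for Sptlc1, -0.052 to 0.19 for Vps28 and -0.018 to 0.20 for Dcaf13.

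The ratio within an array is itself the paired analysis. With the channels fitted as separate groups and no replicate block, the means stayed at -0.07 for Tle6, -0.09 for Zar1, -0.11 for Padi6 and 0.05 for Npm2, and 122 genes had an unadjusted p under 0.05. Requiring both channels well above background on all arrays left 3906 genes, without Padi6, Npm2 and Nlrp5. Those 3 had pools with no signal well above background, and the number of arrays limits the precision of each value.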

Other observations

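Hira and Hsf1 had the highest means among the other maternal-effect genes, and are named here after their values were seen. Hira is a histone chaperone needed for the paternal genome after fertilisation, and Hsf1 is the heat-shock transcription factor. The log2 ratios of Hira were -1.5, 1.5, 2.77 and 3.08 on replicates 1 to 4, with a mean of 1.46 ± 0.79 (SE, n = 4) and rank 5 of 6931 genes. Its other probes were well above background nowhere. Hsf1 was at -1.57, 1.22, 2.23 and 2.64, with a mean of 1.13 ± 0.72 and rank 47, and its other kept probe had a mean of 0.01. Below 0 on replicate 1 and above 0 on the rest were 1066 of 6879 genes (15.5%). Neither was called by limma (adjusted p 0.928 for both), and without replicate 1 the means were 2.45 and 2.03 with an adjusted p of 0.171 for both. Other settings gave smaller means: 0.62 for Hira and 0.33 for Hsf1 with median centring, where the median of all genes was -0.34. With the scanner's ratios the means were 0.73 and 0.59, and the median of all genes was -0.12. With the sign of replicate 1 turned the ranks were 5 for Hira and 31 for Hsf1, and the adjusted p by limma was 0.054 for both. That turn goes against the labels and was made with the negative correlations of replicate 1 known. It raises the mean of any gene below 0 on replicate 1, as both were. This p therefore does not bear on whether they differed.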
